A study of Mus musculus with 7 samples.

Results

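The 10 genes described here encode the enzymes that put double bonds into fatty acids (Scd1, Scd2, Fads1, Fads2 and Fads3) and those that lengthen fatty acids by condensation with malonyl-CoA (Elovl1, Elovl3, Elovl5, Elovl6 and Elovl7). They were taken by symbol from the platform annotation, using every probe set assigned to exactly 1 of these symbols. All 10 were measured, by 29 probe sets, out of 18193 genes with a symbol on an array of 45101 probe sets. The series set mammary glands of mice fed conjugated linoleic acid (CLA, isomers of linoleic acid whose double bonds are conjugated) against glands of mice on control chow. The mice were virgin FVB females carrying PyV-MT, the polyoma virus middle T oncogene, a model of mammary tumour formation. The CLA group ate chow with 1% CLA for 4 weeks from 4 weeks of age and was sampled at 8 weeks, and the control group ate AIN93G chow over the same weeks. Both groups carried the transgene, and the sources used here state neither its promoter nor the CLA isomers. The study assigned 6 mice to CLA and 5 to control chow, and 4 CLA and 3 control glands are compared here, 1 array each.

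Cells make palmitate from acetyl-CoA through acetyl-CoA carboxylase and fatty acid synthase. Elovl6 lengthens palmitate to stearate, and the stearoyl-CoA desaturases Scd1 and Scd2 insert a double bond at the ninth carbon to give palmitoleate and oleate, the main monounsaturated acids of triglyceride and membranes. A separate branch starts from the dietary acids linoleate and alpha-linolenate, which Fads2 (the delta-6 desaturase), Elovl5 and Fads1 (the delta-5 desaturase) turn in that order into arachidonate and other long polyunsaturated acids. Adipocytes of the mammary fat pad and the secretory epithelium both use the first branch to make storage and milk fat.

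Of the 10 genes, 6 lie on mouse chromosome 19, among them the 3 Fads genes, which form 1 cluster, and Scd1 and Scd2, which share another with Scd3 and Scd4. RefSeq start-site sequences (assembly GRCm38.p6, 250 bases before to 50 after a start) were at hand for 6 of the 10 genes and not for Scd1, Scd2, Fads1 or Elovl3. The 3 printed here belong to Elovl6, the first step of the saturated branch, and to Fads2 and Elovl5, the first steps of the polyunsaturated branch. Capitals mark exact matches, on either strand, to 6 motifs searched. These were the E-box CACGTG, the CCAAT box, the GC box GGGCGG, the sterol regulatory element known from the LDL receptor gene, and the direct repeats DR4 and DR1 bound by nuclear receptors.
Elovl6, chr3:129532136-129532435, plus strand: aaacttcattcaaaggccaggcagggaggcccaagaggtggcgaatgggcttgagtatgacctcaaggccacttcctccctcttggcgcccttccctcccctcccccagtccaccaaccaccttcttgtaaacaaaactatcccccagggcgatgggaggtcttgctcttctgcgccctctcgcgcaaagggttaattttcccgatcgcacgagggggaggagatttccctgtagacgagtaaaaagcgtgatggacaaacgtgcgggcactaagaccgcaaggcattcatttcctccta
Fads2, chr19:10101454-10101753, minus strand: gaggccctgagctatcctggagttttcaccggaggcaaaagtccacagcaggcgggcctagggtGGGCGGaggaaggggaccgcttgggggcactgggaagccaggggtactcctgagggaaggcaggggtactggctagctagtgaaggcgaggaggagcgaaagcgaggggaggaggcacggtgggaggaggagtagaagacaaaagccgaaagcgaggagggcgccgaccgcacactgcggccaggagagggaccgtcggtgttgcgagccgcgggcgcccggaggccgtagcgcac
Elovl5, chr9:77917115-77917414, plus strand: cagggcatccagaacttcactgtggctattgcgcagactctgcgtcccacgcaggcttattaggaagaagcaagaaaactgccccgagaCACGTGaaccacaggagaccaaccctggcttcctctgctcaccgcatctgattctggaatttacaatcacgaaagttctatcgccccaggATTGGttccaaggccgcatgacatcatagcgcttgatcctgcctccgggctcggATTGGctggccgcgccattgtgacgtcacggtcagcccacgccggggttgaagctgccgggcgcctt
The Elovl6 window held none of the 6 motifs, the Fads2 window held 1 GC box, and the Elovl5 window held 1 E-box and 2 CCAAT boxes, both on the opposite strand. Among 32851 windows of the same length, with 1 chromosome left out, 7.15% held the E-box, 37.4% the CCAAT box and 35.7% the GC box. The sterol regulatory element was in 0.234% of them, DR4 was in 0.0152% and DR1 in 0.0396%, so exact matches to these are rare in windows of this size. No motif was shared by all 3 windows printed. GC content was 55.7% for Elovl6, 67% for Fads2 and 57.7% for Elovl5, against a median of 52.7% over those 32851 windows.

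The arrays had been scaled to equal trimmed mean signal, 500.003 on each. Pearson correlation between arrays over log2 signals of all probe sets lay between 0.909 and 0.937. For Actb, signal at the 3' end over signal at the 5' end, a ratio that rises as RNA degrades, was 1.41, 1.65, 2.78 and 1.61 on CLA replicates 1 to 4, against 1.45, 1.88 and 1.62 on control replicates 1 to 3. CLA replicate 3 stood apart from the rest, and results without it are given below. Luminal epithelial markers, which define the gland (Krt8, Krt18, Epcam, Elf5 and 3 more, all 7 tested), summed to 87684 to 96849 in CLA glands, against 83267 to 104086 in control glands. White adipocyte markers (8 of 10 measured) summed to 13654 to 32803 in CLA glands, against 40711 to 51264 in control glands, so the groups did not overlap. CLA replicate 4 had the highest sum of the CLA arrays. In bulk tissue fewer cells of a type and less RNA per cell cannot be told apart.

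Of the 10 genes, 0 passed limma's test at an adjusted p under 0.05 over all 12497 genes tested (percent called 0), and no gene of the array came below an adjusted p of 0.294. At an unadjusted limma p under 0.05 there were 4 members, against 5.39% of all genes. They were 3 with lower signal in CLA glands (Scd1, Elovl6 and Elovl3), against 3.01% of all genes, and 1 with higher signal (Fads2), against 2.38%. Elovl3 reached the signal filter for testing only through control replicates 1 and 2, so its place among the 3 is no evidence of a direction. The diets did not overlap for 3 of the 10 genes, against 5.31% of all genes. All CLA arrays lay below all control arrays for 2 of them, Scd1 and Elovl6, where 2.67% of all genes did so. All CLA arrays lay above all control arrays for 1, Fads2, against 2.64%. The median log2 change of the 10 was -0.02, and that of all genes tested was 0.03, with 5 members positive and 5 negative.

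**Figure D1:**
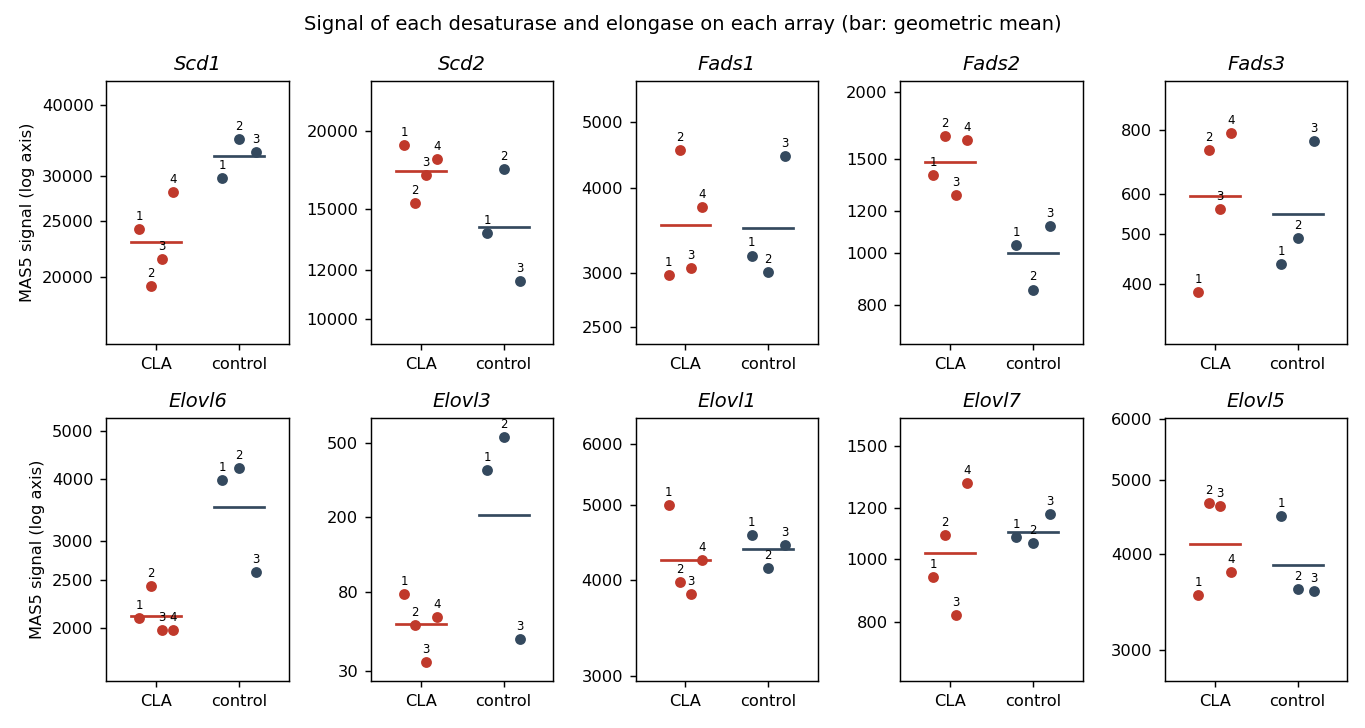
Each panel shows the MAS5 signal (log axis, arbitrary units) of 1 gene's brightest probe set on the 4 CLA arrays (red) and 3 control arrays (dark blue). Points carry the replicate number and bars are geometric means. Scd1 and Elovl6 lie lower on all CLA arrays, Fads2 lies higher on all CLA arrays, and the groups overlap for the other 7 genes.

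Scd1, the main stearoyl-CoA desaturase of adipose tissue and liver, had lower signal in CLA glands. It measured 24214, 19259, 21428 and 28107 on CLA replicates 1 to 4, against 29757, 34780 and 33084 on control replicates 1 to 3. The highest CLA value, on replicate 4, lay just under the lowest control value, on replicate 1. The mean was 23252 ± 3820 (SD, n = 4) in CLA glands and 32541 ± 2555 (SD, n = 3) in control glands. In log2 units the difference was -0.50 ± 0.14 (SE; 95% interval -0.81 to -0.18), 1.41-fold lower in geometric mean. Limma gave an unadjusted p of 0.00566 and an adjusted p of 0.688, and Scd1 ranked 98 of the 12497 genes by p. Its unadjusted p stayed under 0.05 in all 7 fits that left out 1 array, with changes from -0.59 to -0.41.

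The brightest Scd1 probe set ranked between 127 and 230 of all probe sets by signal on the CLA arrays, against 21 to 60 on the control arrays. It thus lay near the top of the scale, where an array may respond less than in proportion to RNA, and the part of this in the size of the change was not tested. The second Scd1 probe set measured 5719, 3191, 2330 and 6140 on the CLA arrays, against 5502, 5754 and 3406 on the control arrays. Its groups overlapped, and its log2 change was -0.24 ± 0.34 (SE, limma unadjusted p = 0.487). The lower level of Scd1 was therefore seen with separate groups on 1 of its 2 probe sets. With both probe sets averaged, the log2 change was -0.37, and limma's unadjusted p was 0.138.

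Scd2, the paralog with the same reaction that is prominent in brain and in developing tissue of the mouse, had a positive change. Its signal was 19055, 15347, 17019 and 18046 on CLA replicates 1 to 4, against 13759, 17429 and 11519 on control replicates 1 to 3. Control replicate 2 lay among the CLA arrays, so the groups overlapped. The log2 change was 0.30 ± 0.15 (SE; 95% interval -0.04 to 0.64; limma unadjusted p = 0.0739, adjusted p = 0.904). All 3 Scd2 probe sets had a positive change, from 0.30 to 0.65, and none had an unadjusted p under 0.05. The median-centred fit gave 0.38 with an unadjusted limma p of 0.0276, and without control replicate 2 the change was 0.46 with an unadjusted limma p of 0.0106. Without control replicate 3 it was 0.16 (limma unadjusted p = 0.311), and of 20 alternatives the median-centred fit and the one without control replicate 2 were the only 2 with an unadjusted p under 0.05.

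Scd1 and Scd2 can be set against each other within each array. Scd1 minus Scd2, in log2 signal of the brightest probe sets, was 0.35, 0.33, 0.33 and 0.64 on CLA replicates 1 to 4, against 1.11, 1.00 and 1.52 on control replicates 1 to 3. All 4 CLA values lay below all control values, a mean shift of -0.80. Of 4 within-array differences between members of 1 class that were computed, 2 separated the diets, this one and Fads2 minus Fads1, and 2 overlapped, Elovl6 minus Elovl1 (shift -0.69) and Elovl6 minus Elovl7 (shift -0.63). These pairs were chosen after their values were seen, so they have no test, and probe sets differ in response, so only the shift between diets can be read. Scd3, the third member of that cluster, which is known from skin, was outside the 10 genes and had a log2 change of 0.11 ± 0.23 (SE). Pkd2l1, the gene next to the cluster that was measured, had -0.19 ± 0.34 (SE).

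Fads2, which catalyses the first and usually rate-limiting desaturation of linoleate and alpha-linolenate, had higher signal in CLA glands. It measured 1397, 1654, 1283 and 1621 on CLA replicates 1 to 4, against 1037, 855 and 1123 on control replicates 1 to 3. Every CLA array lay above every control array, the closest being CLA replicate 3 and control replicate 3. The mean was 1489 ± 179 (SD, n = 4) in CLA glands and 1005 ± 137 (SD, n = 3) in control glands. In log2 units the difference was 0.57 ± 0.16 (SE; 95% interval 0.21 to 0.93), 1.48-fold in geometric mean. Limma's unadjusted p was 0.00562 and its adjusted p 0.688, rank 96 of the genes tested.

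The other Fads2 probe sets had the same sign with overlapping groups. The second measured 1255, 1162, 362 and 1050 on the CLA arrays, against 868, 315 and 622 on the control arrays, with a log2 change of 0.64 ± 0.46 (SE). Its lowest values came from CLA replicate 3 and control replicate 2, the 2 arrays with the highest Actb 3' to 5' ratios, 2.78 and 1.88. The third, a probe set of the x_at class that can bind related transcripts, had 0.32 ± 0.28 (SE). It was highest on CLA replicate 3, at 301, where the other arrays gave 146 to 201. The dimmest Scd2 probe set was also lowest on CLA replicate 3 and control replicate 2, at 111 and 233, where the other arrays gave 598 to 2077. The second Scd1 probe set was lowest on CLA replicate 3 (2330), while control replicate 2 (5754) was the highest of its control arrays. The part of RNA quality in these values was not tested. Without CLA replicate 3 the change of the brightest Fads2 probe set was 0.64, and that of Scd2 was 0.31.

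Fads1, which acts after Fads2 and Elovl5 in the same branch, had nearly equal means under the 2 diets. Its signal was 2981, 4542, 3046 and 3756 on CLA replicates 1 to 4, against 3183, 3014 and 4459 on control replicates 1 to 3. The range within each diet was nearly as wide as that of all arrays. The log2 change was 0.01 ± 0.19 (SE) and its 95% interval, -0.42 to 0.45, spans differences in either direction. Fads2 minus Fads1 was -1.09, -1.46, -1.25 and -1.21 on CLA replicates 1 to 4, against -1.62, -1.82 and -1.99 on control replicates 1 to 3. These groups did not overlap, with a mean shift of 0.56, again with no test.

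Fads3, the least characterised of the cluster, measured 385, 731, 561 and 789 on the CLA arrays, against 437, 492 and 760 on the control arrays. Its log2 change was 0.12 ± 0.28 (SE; 95% interval -0.52 to 0.76). A further probe set had -0.04 ± 0.27 (SE), and the dimmest, at -1.45 ± 0.87 (SE), was the only 1 of the 29 probe sets with a mean below the filter signal of 57.7. The genes that flank the Fads cluster and were measured also overlapped between diets. Rab3il1, next to Fads3, had a log2 change of 0.30 ± 0.24 (SE). Fen1, a DNA replication nuclease near Fads1, had 0.56 ± 0.30 (SE, limma unadjusted p = 0.0949), against 0.57 for Fads2.

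The contrast of delta-9 with delta-5 and delta-6 desaturation was read from 4 pairs, each taken as the difference in log2 signal on 1 array. Scd1 minus Fads2 was 4.12, 3.54, 4.06 and 4.12 on CLA replicates 1 to 4, against 4.84, 5.35 and 4.88 on control replicates 1 to 3. All 4 CLA values lay below all 3 control values, and CLA replicate 2 was the lowest. This separation was fixed in advance, since Scd1 was lower and Fads2 higher on every CLA array than on every control array. The permutation p of this pair is therefore no evidence beyond the results of Scd1 and Fads2. The mean was 3.96 ± 0.28 (SD, n = 4) in CLA glands and 5.02 ± 0.28 (SD, n = 3) in control glands, a shift of -1.06. The two-sided exact permutation p over 35 splits, taken as double the smaller tail, was 0.0571, the smallest this definition can give, and 0.229 when adjusted over the 8 pairs tested. Counting splits by absolute difference instead, a definition added after seeing the data, the exact permutation p was 0.0286 and the adjusted value 0.114. Over the 5 arrays whose title numbers begin with 28, a possible batch, the shift was -1.21.

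The other desaturase pairs had overlapping groups. Scd1 minus Fads1 shifted by -0.51 (exact permutation p = 0.171, adjusted 0.343), by -0.30 without CLA replicate 2, and by -0.11 with each gene's probe sets averaged. Scd2 minus Fads2 shifted by -0.27 and Scd2 minus Fads1 by 0.29 (exact permutation p = 0.457 and adjusted 0.571 for both). Non-overlap was seen for Scd1 with Fads2, where it was fixed in advance, and for none of the other 3 desaturase pairs. As class means, delta-9 desaturases stood at -0.04 ± 0.18 in CLA glands and 0.06 ± 0.18 in control glands, in log2 units from the mean of all 7 arrays (SD, n = 4 and 3). Delta-5 and delta-6 desaturases stood at 0.12 ± 0.22 in CLA glands and -0.17 ± 0.24 in control glands, with overlap in both classes.

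**Figure D2:**
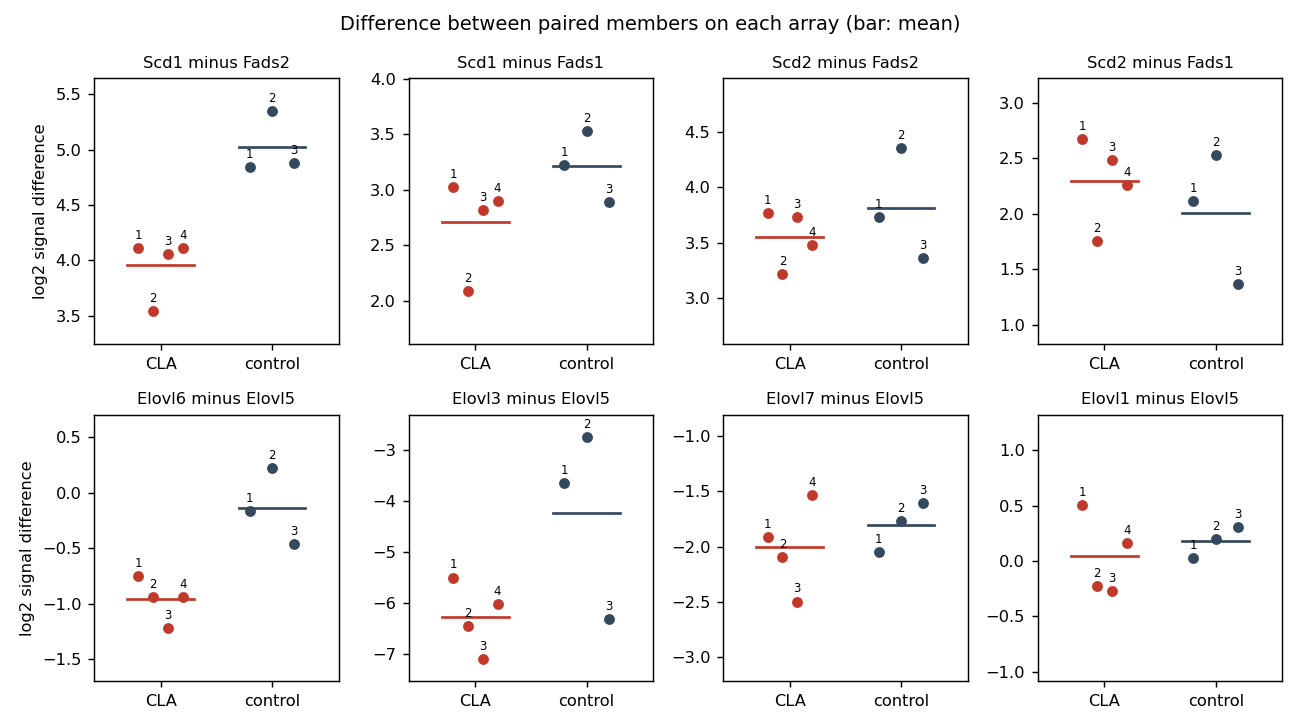
Each panel shows the difference in log2 signal between 2 genes on the 4 CLA arrays (red) and 3 control arrays (dark blue). Points carry the replicate number and bars are means. The diets separate for Scd1 minus Fads2 and for Elovl6 minus Elovl5 and overlap in the other 6 panels. For Scd1 minus Fads2 this was fixed in advance, since Scd1 and Fads2 each separate the diets, in opposite directions.

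Elovl6, the elongase of palmitate and a well-known target of the lipogenic factor SREBP-1c, had the smallest p of the 10 genes. It measured 2096, 2429, 1983 and 1978 on CLA replicates 1 to 4, against 3991, 4207 and 2592 on control replicates 1 to 3. The CLA arrays were tightly grouped, and control replicate 3 stood much closer to them than the other 2 controls did. The mean was 2121 ± 212 (SD, n = 4) in CLA glands and 3596 ± 877 (SD, n = 3) in control glands. The log2 change was -0.73 ± 0.18 (SE; 95% interval -1.15 to -0.32), 1.66-fold lower in geometric mean, limma's unadjusted p was 0.00279 and its adjusted p 0.688, rank 50. With 1 array left out the change ran from -0.95 (without control replicate 3) to -0.61 (without control replicate 2).

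The second Elovl6 probe set measured 1295, 912, 837 and 1054 on the CLA arrays, against 2213, 1732 and 1169 on the control arrays. Its log2 change, -0.71 ± 0.23 (SE, limma unadjusted p = 0.0126), was close to that of the brightest, although CLA replicate 1 lay above control replicate 3. The third and dimmest had -0.28 ± 0.26 (SE). Elovl6 was thus lower on all 3 of its probe sets, with an unadjusted p under 0.05 on 2 of them. A test with unequal variances for each gene, which does not pool the spread over genes, gave the brightest an unadjusted p of 0.0685 in place of limma's.

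Elovl3, which makes very long saturated and monounsaturated acids and is abundant in brown adipocytes and in sebaceous glands, had the widest spread. Its single probe set measured 78.2, 53.4, 33.8 and 58.5 on CLA replicates 1 to 4, against 359, 538 and 44.8 on control replicates 1 to 3. Control replicates 1 and 2 were far above all other arrays, and control replicate 3 lay within the CLA range. The log2 change was -1.94 ± 0.75 (SE; 95% interval -3.61 to -0.27; limma unadjusted p = 0.0276, adjusted p = 0.867). Without control replicate 3 the change was -3.03, without control replicate 2 it was -1.24 and without control replicate 1 it was -1.53, the last 2 with unadjusted limma p of 0.131 and 0.109. All CLA values and control replicate 3 lay near the filter signal of 57.7, so the size of this change is uncertain. Elovl3 reached that filter only through control replicates 1 and 2.

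The summed signal of brown adipocyte markers, like Elovl3, was high on control replicates 1 and 2 and lower on control replicate 3. Of the 7 brown markers, 5 had lower signal in CLA glands at an unadjusted limma p under 0.05, against 3.01% of all genes. Dio2 and Ppargc1a did not, with log2 changes of -0.12 ± 0.47 and -0.22 ± 0.46 (SE). Dio2 measured 369, 169 and 243 on control replicates 1 to 3, so it did not follow Elovl3 there. All 7 summed to 1711, 1010, 1967 and 5243 on CLA replicates 1 to 4, against 15720, 16412 and 3590 on control replicates 1 to 3. Ucp1, the uncoupling protein that defines brown adipocytes, was 3.19, 18.2, 39.6 and 916 on the CLA arrays, against 3383, 3964 and 144 on the control arrays. CLA replicate 4 thus had more Ucp1 than control replicate 3, with an Elovl3 signal of 58.5 against 44.8. Skeletal muscle markers, of which 6 of 6 had lower signal at that threshold, summed to 205 to 10312 in CLA glands, against 6847 to 63685 in control glands, with the highest sum on control replicate 2. Of the sebaceous gland and skin markers, 4 of 6 were measured and 2 tested. Those 2, Krt79 and Krt10, had positive log2 changes of 0.13 ± 0.34 and 0.25 ± 0.40 (SE), with overlap. Mc5r, a receptor of sebaceous glands, was below the filter and was not tested. It was at 26.5 to 33.1 in CLA glands, against 8.80 to 89.2 in control glands. The part of these cell types in the Elovl3 difference was not tested.

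**Figure D3:**
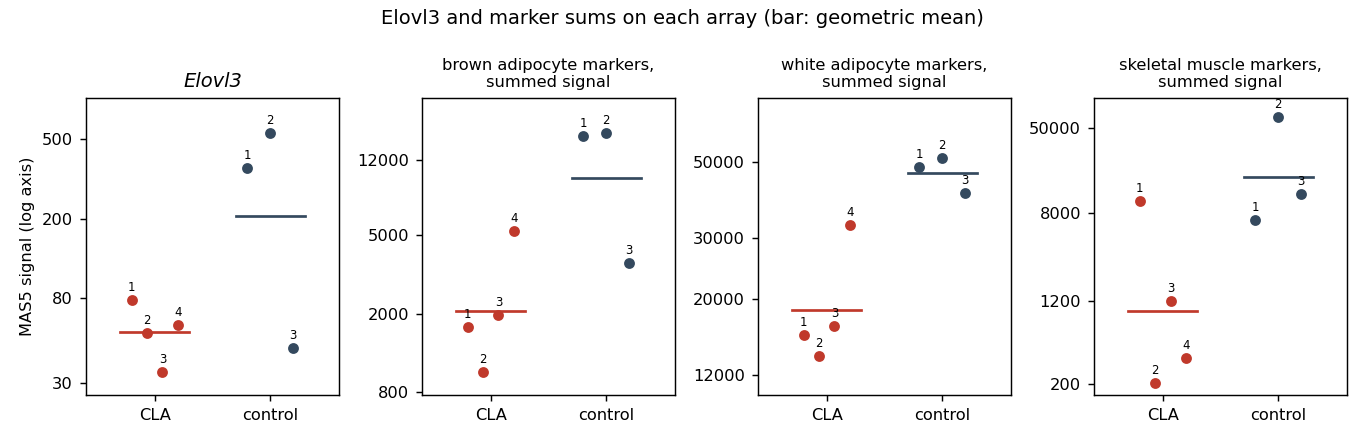
From left to right, the panels show Elovl3 signal and the summed signals of 7 brown adipocyte, 8 white adipocyte and 6 skeletal muscle markers on the 4 CLA arrays (red) and 3 control arrays (dark blue), on log axes in MAS5 units. Points carry the replicate number and bars are geometric means. Control replicates 1 and 2 are high for both Elovl3 and the brown marker sum, and control replicate 3 is low for both.

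Elovl1, which lengthens saturated and monounsaturated acids toward those of sphingolipids, had nearly equal signal under both diets. It measured 5006, 3973, 3836 and 4245 on CLA replicates 1 to 4, against 4568, 4149 and 4438 on control replicates 1 to 3, a log2 change of -0.05 ± 0.13 (SE). The 95% interval, from -0.34 to 0.24, was the narrowest of the 10. Its 4 probe sets had changes between -0.11 and -0.05, and the brightest is of the x_at class. Elovl7, a further elongase of saturated acids, measured 939, 1092, 818 and 1312 on the CLA arrays, against 1081, 1059 and 1175 on the control arrays. Its brightest probe set had -0.11 ± 0.18 (SE) with a 95% interval from -0.51 to 0.29, and all 6 of its probe sets had a negative change, from -0.50 to -0.11, none with an unadjusted p under 0.05.

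Elovl5, which lengthens the polyunsaturated acids between the steps of Fads2 and Fads1, measured 3537, 4658, 4616 and 3792 on CLA replicates 1 to 4, against 4480, 3605 and 3580 on control replicates 1 to 3. The log2 change was 0.09 ± 0.15 (SE; 95% interval -0.25 to 0.43), and its second probe set had 0.04 ± 0.13 (SE). Of the elongases of polyunsaturated acids outside the 10 genes, Elovl2 was at 8.21 to 56.7 in CLA glands, against 2.41 to 24.2 in control glands. Elovl4, which makes the longest chains, was at 3.81 to 67.0 in CLA glands, against 13.7 to 54.0 in control glands. Neither reached the filter and neither was tested, so among the elongases of polyunsaturated acids Elovl5 alone was bright enough for a comparison.

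Saturated and polyunsaturated elongation were set against each other in 4 pairs with Elovl5. Elovl6 minus Elovl5 was -0.75, -0.94, -1.22 and -0.94 on CLA replicates 1 to 4, against -0.17, 0.22 and -0.47 on control replicates 1 to 3. The groups did not overlap, and CLA replicate 1 and control replicate 3 were closest. The shift was -0.83, with a two-sided exact permutation p of 0.0571 and 0.229 when adjusted over the 8 pairs (0.0286 and 0.114 by absolute difference). Elovl3 minus Elovl5 shifted by -2.03 (exact permutation p = 0.171, adjusted 0.343; -1.28 without control replicate 2 and -3.07 without control replicate 3), Elovl7 minus Elovl5 by -0.20 and Elovl1 minus Elovl5 by -0.14, all with overlap. For the last 2 the exact permutation p was 0.514 and 0.571. The class of saturated and monounsaturated elongases as a mean stood at -0.30 ± 0.21 in CLA glands and 0.40 ± 0.55 in control glands (log2 units from the mean of all arrays, SD, n = 4 and 3), with overlap. The mean of this class rested on Elovl6 and Elovl3, since Elovl1 and Elovl7 had changes of -0.05 and -0.11.

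**Figure D4:**
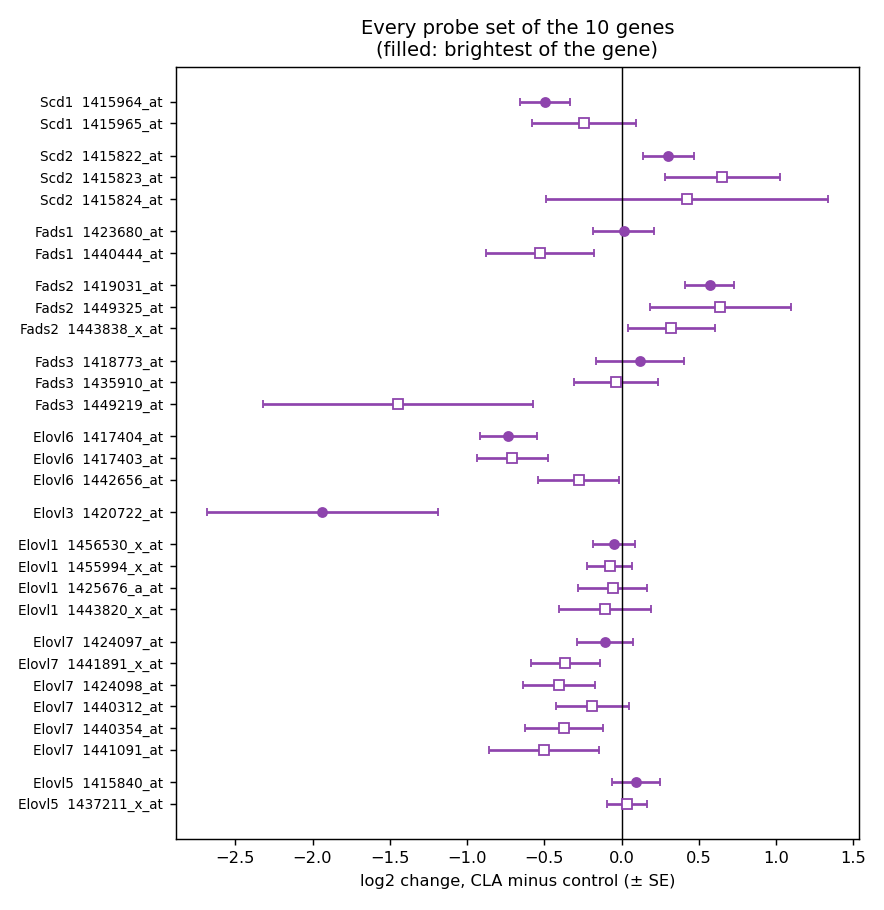
Log2 changes (CLA minus control, bars ± SE) of all 29 probe sets of the 10 genes, with the brightest of each gene filled. For 8 of the 10 genes all probe sets have 1 sign, counting Elovl3 with its single probe set, and Fads1 and Fads3 have probe sets of both signs.

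The enzymes upstream of Elovl6 and Scd1, which make palmitate, also had lower signal in CLA glands. Of 8 genes of palmitate synthesis, all tested, 6 had lower signal at an unadjusted limma p under 0.05, against 3.01% of all genes. The same 6 had all CLA arrays below all control arrays, against 2.67% of all genes. With adjustment over all genes 0 passed, and the median log2 change was -0.96. Fasn, fatty acid synthase, had -1.23 ± 0.18 (SE), Acaca, which makes malonyl-CoA, -1.23 ± 0.21, Acss2, which makes acetyl-CoA from acetate, -1.24 ± 0.24, and Me1, a source of NADPH, -0.68 ± 0.14. Slc25a1, the citrate carrier, had -0.68 ± 0.17. On the same scale Elovl6 was at -0.73 and Scd1 at -0.50, and differences between these genes' changes were not tested. Mcat, of the mitochondrial pathway, had 0.10 ± 0.20. This list was chosen with results of these arrays known and is no independent evidence of a direction.

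**Figure D5:**
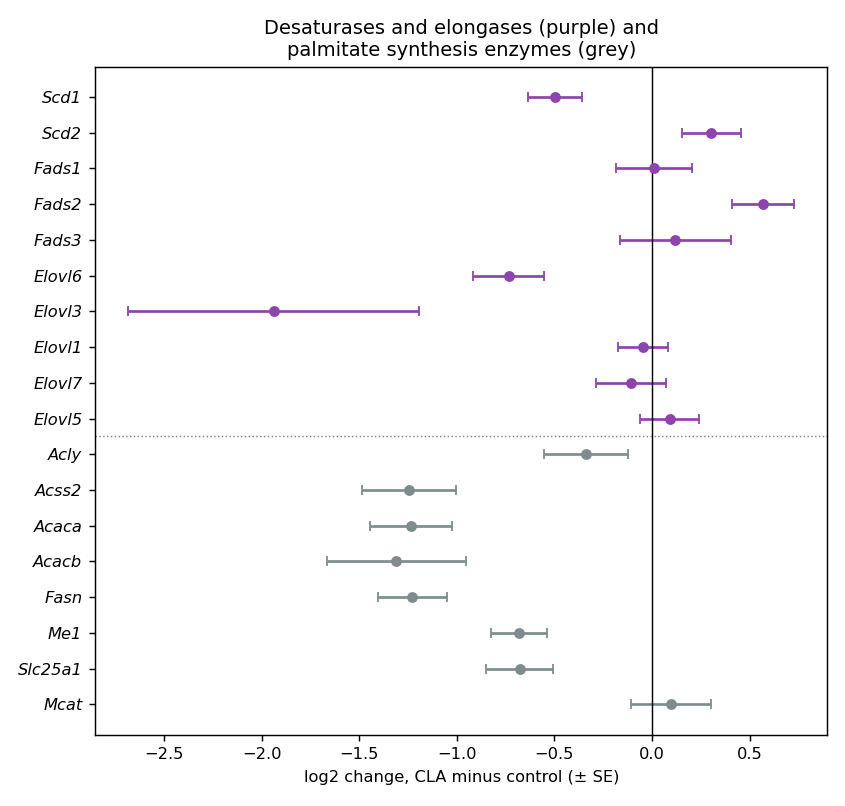
Log2 changes (CLA minus control, bars ± SE) of the 10 desaturases and elongases (purple) above those of 8 palmitate synthesis genes (grey). Elovl6, Scd1 and Elovl3 lie left of 0 with most palmitate synthesis genes, Fads2 lies right of 0, and the remaining 6 members lie between -0.11 and 0.30.

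Among the partners of the desaturases and elongases, no gene reached an unadjusted limma p under 0.05. The elongation cycle needs a ketoreductase, dehydratases and an enoyl reductase beside an Elovl enzyme, and 0 of 6 of these genes had an unadjusted limma p under 0.05, with a median log2 change of -0.08. Hacd2, a dehydratase, had the smallest p of them, at -0.40 ± 0.18 (SE, limma unadjusted p = 0.0526). Hacd4 had -0.19, Tecr, the enoyl reductase, -0.09, Hacd1 -0.07, Hsd17b12, the ketoreductase, -0.03 and Hacd3 0.02. Desaturases draw electrons from cytochrome b5 and its reductases, and 0 of 5 tested genes passed an unadjusted p under 0.05, with a median of -0.17. Cyb5a, the microsomal cytochrome b5, had -0.33 ± 0.16 (SE, limma unadjusted p = 0.0609), Cyb5r3, its main reductase, -0.21 ± 0.15, Cyb5b -0.17, Cyb5r1 0.10 and Cyb5r4 0.09. Cyb5r2 was below the filter and was not tested.

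Of the acyl-CoA synthetases, which activate fatty acids for these enzymes, 0 of 3 tested genes had an unadjusted limma p under 0.05 (median -0.19). They were Acsl4, which prefers arachidonate, at -0.49 ± 0.30 (SE), Acsl5 at -0.19 ± 0.13 and Acsl3 at -0.004 ± 0.29. Of the related genes outside the 10, 0 of 3 tested (Scd3 above, Degs1 and Fads6) had an unadjusted p under 0.05. Degs1, the ceramide desaturase, had -0.03 ± 0.18 (SE) and Fads6 -0.35 ± 0.23, while Degs2 was below the filter.

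Regulators of these genes included the sterol response factors and nuclear receptors. The 12 tested had a median log2 change of 0.01. Of them, 2 had lower signal at an unadjusted limma p under 0.05, against 3.01% of all genes, and 0 had higher. Both overlapped between diets, namely Pparg, the adipocyte receptor, at -1.52 ± 0.42 (SE, limma unadjusted p = 0.00523), and Mlxipl, the carbohydrate response factor ChREBP, at -1.04 ± 0.32 (limma unadjusted p = 0.00935). Srebf1, the activator of Scd1, Elovl6 and Fads2 among others, had 0.01 ± 0.18. Next in p were Nr1h3, a liver X receptor, at -0.36 ± 0.27, and Insig1, which retains SREBP in the endoplasmic reticulum, at -0.48 ± 0.38. Cholesterol synthesis genes, targets of SREBP-2, had 0 of 11 tested at an unadjusted limma p under 0.05 and a median of 0.21. Of the 11, 10 were positive and 1 negative, where 6905 of all 12497 genes tested were positive and 5592 negative. The cholesterol synthesis genes of smallest p were Dhcr7 (0.28 ± 0.21, SE), Sqle (0.28 ± 0.24), Lss (0.25 ± 0.23) and Fdps (0.32 ± 0.33).

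White adipocyte markers lay lower in the same glands where Scd1 and Elovl6 did. All 8 tested had lower signal at an unadjusted limma p under 0.05, against 3.01% of all genes, with a median log2 change of -1.57. For 5 of them all CLA arrays lay below all control arrays, against 2.67% of all genes. CLA replicate 4 had the highest white adipocyte sum of the CLA arrays, 32803 against 13654 to 16628 on the others. Scd1 was also highest of the CLA arrays there, at 28107. Elovl6 measured 1978 there, nearly equal to 1983 on CLA replicate 3, against 2096 and 2429 on CLA replicates 1 and 2. Without that array the changes of Scd1, Fads2 and Elovl6 were -0.59, 0.53 and -0.70. Luminal markers had a median log2 change of -0.003 with 0 of 7 at an unadjusted p under 0.05. Of the basal epithelial markers, 3 of 5 were higher at an unadjusted limma p under 0.05 (median 1.24), against 2.38% of all genes. All 5 summed to 7354 to 9163 in CLA glands, against 4009 to 7118 in control glands. Acta2, 1 of the 5, had a log2 change of -0.04 ± 0.31 (SE). The part of adipocyte or basal epithelial content in the Scd1, Fads2 and Elovl6 differences was not tested.

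The sums of the other marker lists overlapped between diets. Of 4 macrophage markers tested, 1, Cd14, was lower at an unadjusted limma p under 0.05, against 3.01% of all genes (median log2 change 0.06). All 4 summed to 10108 to 13090 in CLA glands, against 11756 to 18897 in control glands. Milk genes, which mark secretory differentiation (5 tested, median -0.64), summed to 72687 to 212679 in CLA glands, against 133446 to 204360 in control glands, with the lowest sum on CLA replicate 3. Keratin genes of the skin were highest on that array too, where Krt1 measured 439, while the remaining CLA arrays gave 11.4 to 51.6 and the control arrays at most 50.9. Without CLA replicate 3 the changes of Scd1, Fads2, Elovl6 and Elovl3 were -0.46, 0.64, -0.70 and -1.72, and for Elovl3 the unadjusted limma p was then 0.0652.

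The title numbers of the samples start with 27 for CLA replicate 1 and control replicate 1 and with 28 for the other 5, and the sources used here do not say what they stand for. Within those starting with 27, from 1 array a diet, the differences were -0.30 for Scd1, 0.43 for Fads2, -0.93 for Elovl6 and -2.20 for Elovl3. Within those starting with 28 they were -0.58, 0.62, -0.64 and -1.72 for the same genes in that order. Scd2 was 0.47 and 0.24 and Elovl7 -0.20 and -0.08, so these 6 genes had the same sign in both sets. Elovl5 was -0.34 within 27 and 0.27 within 28, and Fads1, Fads3 and Elovl1 also changed sign between the sets.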

How the data were processed

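RNA from each gland was labelled with biotin for a 1-colour array, per the labels. The deposited values are linear intensity values that the authors made with MAS5, per the submitters' processing notes, and the sources used here state no version. Trimmed means (2% off each end) were equal across arrays, so the authors' scaling was kept, and differences are relative to a gland's other transcripts. Signals under 1 were set to 1 before log2. Of 45101 probe sets, 64 were controls, 34945 had 1 gene symbol, 932 several and 9160 none; symbols were updated by Entrez identifier (RefSeq, GRCm38.p6) for 34741. A gene was represented by its probe set of highest mean log2 signal, and 12497 of 18193 genes, all 10 members included, reached the 40th percentile (signal 57.7) and were tested.

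Limma 3.58.1 (R 4.3.3; eBayes with trend; two-sided) compared CLA with control, with Benjamini-Hochberg adjustment across those genes. Single probe sets were fitted together with all probe sets of 1 symbol. Pairs of members had exact permutation tests over arrays (two-sided, double the smaller tail). Each array was taken as 1 animal, as labelled, and the number of arrays limits precision. The fit was tested on 10 runs of simulated data, each with 200 of 12497 genes changed and noise independent between genes. At an adjusted limma p under 0.05 it recovered 44.3% of 2-fold and 87.5% of 4-fold changes, with a mean of 6.2 false calls.

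Members, lists and pairs were chosen with earlier results of these data known. Named genes were all members, the 4 of smallest p in each further list, the whole family and cytochrome b5 lists and the cluster neighbours; others were named after their values were seen. Matplotlib 3.10.9 (Python 3.11.15) drew the figures.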

Additional observations from a re-analysis of the deposited data

Results flagged for a closer look

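Among the 23 sets of 4 CLA values checked for a value far from the others, 1 stood out, and chance alone marks about 1 set in 20. Scd1 minus Fads2 was 3.54 on CLA replicate 2, against 4.06 to 4.12 on the other 3 CLA arrays, a gap of 0.907 of the whole range, above Dixon's critical value for 4 samples. CLA replicate 2 had both the lowest Scd1 signal, 19259, and the highest Fads2 signal, 1654, of the CLA arrays. Without it the shift between diets was -0.93, against -1.06 with all arrays.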

How the results depend on the processing

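Over 198 repeats of the 10 gene results (other normalizations, pseudocounts, filters, variance models, probe sets, the title number as a block, and each array left out), 0 reached an adjusted limma p under 0.05, and the smallest was 0.174. Scd1, Scd2, Fads2, Elovl3, Elovl5 and Elovl6 kept their sign in all of theirs. Fads1 was -0.26 as a mean of its probe sets, -0.0097 with the title block and -0.53 on its second probe set, Fads3 was -0.46 as a mean of probe sets and -0.037 and -1.45 on its other probe sets, and Elovl1 was 0.034 after median centring. With an array left out the ranges were -0.11 to 0.19 for Fads1, -0.042 to 0.36 for Fads3, -0.13 to 0.0018 for Elovl1 and -0.23 to 0.00019 for Elovl7. Across such fits Scd2 minus Fads2 ran from -0.49 to 0.0030 and Scd2 minus Fads1 from -0.027 to 0.55, and those were the 2 reversals among 96 repeats of the pairs. The number of members at an unadjusted p under 0.05, 4 as reported, was 2 with the per-gene unequal-variance test, where Elovl6 and Elovl3 fell out. It was 5 after median centring, where Scd2 was added. With averaged probe sets, the 60th percentile filter or title numbers starting with 28 it was 3, and with an array left out 3 to 4. Over all genes 674 had an unadjusted p under 0.05, 1227 within title numbers starting with 28 and 380 to 1380 with an array left out, the extremes being without control replicates 2 and 1. At an adjusted p under 0.05, 1 gene was higher within title numbers starting with 28, and 0 to 2 were higher and 0 to 17 lower with an array left out, the 17 without CLA replicate 4. The cause was not tested. The 60th percentile filter removed Elovl3. No paired analysis was possible because the labels give the groups no shared replicate numbers; the title start, which both groups share, was fitted as a block and left 4 members at an unadjusted p under 0.05. The exact permutation p of pairs as reported cannot go below 0.0571; by absolute difference, added after seeing the data, it can reach 0.0286, and the smallest adjusted p was then 0.114. Elovl3 in CLA glands lay near background, which limits its fold.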
